A study of Arabidopsis thaliana with 20 samples.

Results

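The 41 nuclear genes described here encode parts of the photosynthetic apparatus of Arabidopsis thaliana, and they were chosen by locus from 27445 nuclear genes. They hold 4 antenna genes of photosystem I, 6 antenna genes of photosystem II, 10 subunits of photosystem I, 10 of photosystem II, 4 electron carriers or subunits, 2 subunits of the chloroplast ATP synthase and 5 genes of carbon fixation. RNA was sequenced from meiocytes, the cells that undergo meiosis, taken from floral buds of stage 9 to 10, and from seedlings of 20 days. In each tissue there were 2 libraries each of pol2a-1suvh2suvh9, suvh2suvh9, pol2a-1, pol2a-2 and WT, which makes 20 libraries in all. POL2A is the catalytic subunit of DNA polymerase epsilon, which copies DNA, and SUVH2 and SUVH9 are related proteins that bind methylated DNA and act in gene silencing. The line pol2a-1suvh2suvh9, called the triple mutant here, carries all of pol2a-1, suvh2 and suvh9, and no other allele or agent is named in the labels. The 4 libraries whose titles read pol2a-2 carry pol2a-1 as their genotype label, and they are kept here under their titles. All plants grew in a greenhouse at 20 °C with 16 h of light and 8 h of dark. Each meiocyte sample pooled 300 to 400 meiocyte masses and each seedling sample 4 to 5 plants, so a library is not a single plant.

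In leaves, antenna proteins of the LHCA and LHCB families gather light and pass its energy to photosystems I and II. Photosystem II splits water, electrons pass through the cytochrome b6f complex, plastocyanin and photosystem I to ferredoxin, and the proton gradient that forms drives ATP synthase. The ATP and reducing power then feed carbon fixation by Rubisco. The subunits encoded in the nucleus are made in the cytosol and imported into chloroplasts, where they join subunits encoded by the chloroplast genome. Their transcripts are known as some of the most abundant of green tissue and are induced by light.

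Total counts, in units of 1e6, ran between 11.9 and 20.9 in meiocyte libraries and between 11.9 and 34.5 in seedling libraries. All 41 genes passed the filter on low counts in both tissues. The lowest count of any of them was 35 in a meiocyte library and 2203 in a seedling library. As a check of the labels, SUVH9 had 0 or 1 count in pol2a-1suvh2suvh9 and suvh2suvh9 meiocytes, against 226 and 137 counts in WT meiocytes, and 12 to 31 counts in the seedlings of both mutants, against 1166 and 800 counts in WT seedlings. SUVH2 kept 194 and 151 counts in pol2a-1suvh2suvh9 and 229 and 261 in suvh2suvh9 meiocytes, against 700 and 805 counts in WT meiocytes, and 110 and 99 counts in pol2a-1suvh2suvh9 and 111 and 89 in suvh2suvh9 seedlings, against 274 and 289 counts in WT seedlings. POL2A had 65.6 and 67.7 CPM (counts per 1e6 counts of all features) in pol2a-1suvh2suvh9, 89.8 and 89.5 CPM in pol2a-1 and 155 and 156 CPM in pol2a-2 meiocytes, against 236 and 165 CPM in WT meiocytes. In seedlings POL2A had 36.3 and 39.6 CPM in pol2a-1suvh2suvh9, 28.5 and 29.3 CPM in pol2a-1 and 30.6 and 65.9 CPM in pol2a-2, against 47.2 and 41.1 CPM in WT, so the library labelled pol2a-2 seedling replicate 2 lay above both WT libraries. The 7 meiocyte markers (DMC1, ASY1, SDS, SPO11-1, SYN1, MMD1 and ZYP1A) summed to 2771 to 3337 CPM in meiocyte libraries and to 10.6 to 40.5 CPM in seedling libraries. The leaf carbonic anhydrase gene CA1 had 0 and 2 counts in WT meiocytes, against 105427 and 85364 counts in WT seedlings, and CA2 had 0 counts in both WT meiocyte libraries. A list of 8 root markers summed to only 0.895 to 1.16 CPM in WT seedlings, against 0.669 to 0.830 CPM in WT meiocytes. In pol2a-1suvh2suvh9 seedlings the sum was 3.74 to 12.5 CPM, most of it NRT2.1 alone (11.6 and 3.22 CPM). The seedling libraries thus held little RNA of these root genes. Seedling libraries fell into 2 sets that follow genotype: chloroplast genes took 0.0215 to 0.0443% of counts in pol2a-1suvh2suvh9 and suvh2suvh9 seedlings and 2.11 to 2.42% in pol2a-1, pol2a-2 and WT seedlings. The groups and these library sets cannot be told apart in any comparison between them. Among meiocytes, pol2a-2 had the highest chloroplast shares (0.0751 and 0.0712%, against 0.0126 to 0.0420% in the other genotypes). Its mitochondrial shares were also the highest (0.196 and 0.277%, against 0.0231 to 0.0786%) and its totals the lowest (11.9 and 13.6 in units of 1e6). These traits and the pol2a-2 genotype cannot be told apart in meiocytes.

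Every one of the 41 genes was lower in WT meiocytes than in WT seedlings. Together they took 0.0646 to 0.300% of all counts in the 10 meiocyte libraries and 12.5 to 16.2% in the 10 seedling libraries. The median log2 fold change of WT meiocytes over WT seedlings was -7.79 (edgeR quasi-likelihood F test, Benjamini-Hochberg adjustment over 24418 features, called at adjusted p under 0.05). All 41 were called lower, where 41.7% of all features tested were called lower and 35.2% higher. With an offset that removed the trend of counts with gene length in each library, the median was -6.98. In bulk RNA, fewer cells of a type and less RNA per cell cannot be told apart.

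**Figure D1:**
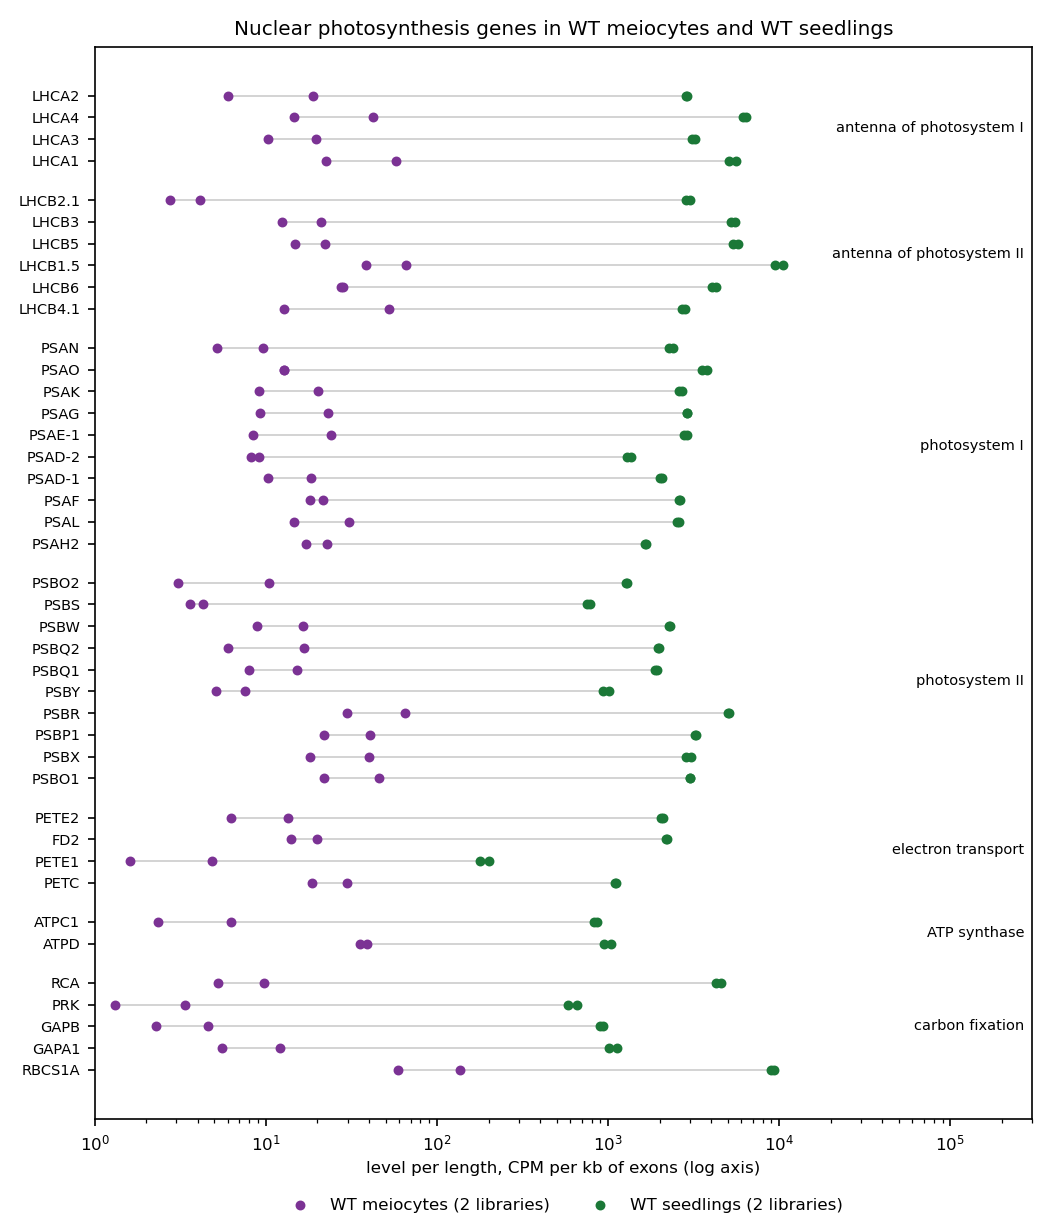
Level of each of the 41 genes in CPM per kb of exon (log axis), by role, with a point for each of the 2 WT meiocyte libraries and each of the 2 WT seedling libraries and a line joining the points of a gene. The WT meiocyte points lie far below the WT seedling points for every gene, by 32.9-fold for ATPD and 1072-fold for LHCB2.1 in the fitted values.

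Carbon fixation and the antennae showed the widest gaps. The 5 carbon fixation genes had a median of -8.40 (log2), the 6 photosystem II antenna genes -8.23 and the 4 photosystem I antenna genes -8.10. LHCB2.1 (AT2G05100), an antenna protein of the mobile light-harvesting complex, had 5.75 and 3.87 CPM in WT meiocytes, against 4220 and 4003 CPM in WT seedlings (log2 fold change -10.07 ± 0.67, SE; adjusted p = 9.31e-10). RCA (AT2G39730), which encodes Rubisco activase, the enzyme that keeps Rubisco in its working form, had 20.3 and 10.98 CPM in WT meiocytes and 9657 and 8996 CPM in WT seedlings (-9.55 ± 0.47). LHCB3 (AT5G54270), a further subunit of the same antenna complex, differed by -8.66 ± 0.60, and PSAN (AT5G64040), a lumenal subunit of photosystem I, by -8.63 ± 0.39. The 10 photosystem I subunits had a median of -7.68 and the 10 photosystem II subunits -7.64.

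By median, the narrowest gaps lay in the 2 ATP synthase genes (-6.50) and the 4 electron transport genes. Single genes of these roles had wider gaps, down to -7.97 and -8.05. ATPD (AT4G09650), the delta subunit of the chloroplast ATP synthase, had 40.7 and 44.8 CPM in WT meiocytes, against 1085 and 1192 CPM in WT seedlings (log2 fold change -5.04 ± 0.23, 32.9-fold; adjusted p = 1.62e-11). ATPC1 (AT4G04640), the gamma subunit of the same enzyme, had 9.55 and 3.58 CPM in WT meiocytes and 1256 and 1319 CPM in WT seedlings, a difference of -7.97 ± 0.37. PETC (AT4G03280), the Rieske iron-sulfur protein of cytochrome b6f, differed by -5.83 ± 0.27, and the plastocyanin gene PETE1 (AT1G76100) by -6.25 ± 0.34. PSAH2 (AT1G52230), a photosystem I subunit at the docking site of the mobile antenna, differed by -6.69 ± 0.27. The median over the 4 electron transport genes was -6.80.

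Set against all nuclear genes by CPM per kb, 39 of the 41 genes were among the 100 highest in WT seedlings, with a median rank of 30 of 27445. In WT meiocytes the highest of them, RBCS1A (AT1G67090), ranked 1415 at 98.2 CPM per kb and the median gene ranked 7235. The lowest in WT meiocytes was PRK (AT1G32060), phosphoribulokinase, at rank 13025 with 2.34 CPM per kb. In pol2a-1suvh2suvh9 meiocytes the best rank was 387 and the median rank 3786. The order among the 41 genes also differed between tissues: by CPM per kb ATPD was the fifth highest of them in WT meiocytes, below RBCS1A, LHCB1.5 (AT2G34420), PSBR and LHCA1 (AT3G54890).

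Pairs of genes for the same protein or enzyme held different shares in meiocytes and seedlings. PSBO1 (AT5G66570) and PSBO2 (AT3G50820) both encode the manganese-stabilising protein of photosystem II, and PSBO1 made up 81.5 to 88.04% of their summed CPM per kb in the 10 meiocyte libraries, against 69.6 to 73.5% in the 10 seedling libraries. Of the plastocyanin pair, PETE1 held 18.5 to 35.2% in meiocyte libraries and 6.15 to 9.59% in seedling libraries, the rest being PETE2 (AT1G20340). GAPA1 (AT3G26650) and GAPB (AT1G42970) encode the 2 subunits of chloroplast glyceraldehyde-3-phosphate dehydrogenase, and GAPA1 held 65.4 to 79.6% in meiocyte libraries, against 49.8 to 61.7% in seedling libraries. None of these 3 ranges overlapped between tissues. Those of PSAD-1 (AT4G02770) with PSAD-2 (AT1G03130) and of PSBQ1 with PSBQ2 did. The 5 genotypes of a tissue are pooled in each range, so the ranges are a description over 10 libraries and carry no test.

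**Figure D2:**
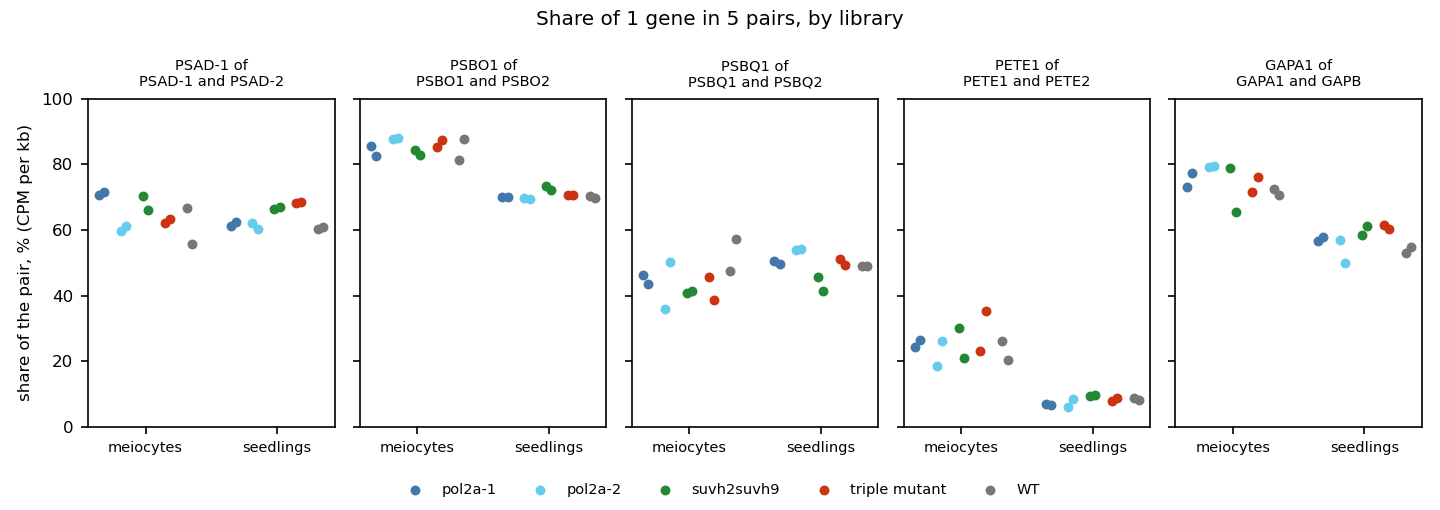
Share in percent of the first gene of each pair in the summed CPM per kb of the pair, a point per library, with meiocyte libraries left of seedling libraries. The points of the 2 tissues are apart for PSBO1, PETE1 and GAPA1 and overlap for PSAD-1 and PSBQ1.

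Other genes of the pathway followed the same direction between tissues. Of 32 further photosynthesis genes 32 were called lower in WT meiocytes (median log2 fold change -7.26), as were 14 of 14 chlorophyll synthesis genes (median -6.85), 9 of 10 photorespiration genes (median -6.97) and 13 of 14 regulators of photosynthesis genes (median -4.97). GLK2, a transcription factor that activates photosynthesis genes, had 0 counts in both WT meiocyte libraries, against 7960 and 6362 counts in WT seedlings. Its relative GLK1 had 34 and 50 counts in WT meiocytes and 7155 and 5654 in WT seedlings. CA1 counts per 10000 counts of the 41 genes were 0 to 18.2 in meiocyte libraries and 161 to 307 in seedling libraries, so the ratio of this leaf enzyme to the photosynthesis genes was lower in meiocytes in every library. Another leaf marker, PPCK1, had 94.8 and 76.1 CPM in WT meiocytes and 64.7 and 67.0 CPM in WT seedlings.

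Promoters of 5 genes that mark the ends of these results are shown. They are the smallest and the largest tissue difference (ATPD and LHCB2.1), the gene called in mutant meiocytes (PSAO) and the genes called higher and lower in mutant seedlings (RBCS1A and PSAD-2). Each is the 250 bases before the annotated start, 5′ to 3′ on the gene's strand, from RefSeq on assembly TAIR10.1. Capitals mark matches to 4 motifs searched on both strands: CACGTG (G-box), GATAAG (I-box), CCAATC (the GLK site) and AAAATATCT (evening element). ATPD lies at chr4:6100464-6100713 on the plus strand, LHCB2.1 at chr2:1824481-1824730, PSAO at chr1:2641935-2642184, RBCS1A at chr1:25049668-25049917 and PSAD-2 at chr1:754263-754512, the last 4 on the minus strand.
ATPD: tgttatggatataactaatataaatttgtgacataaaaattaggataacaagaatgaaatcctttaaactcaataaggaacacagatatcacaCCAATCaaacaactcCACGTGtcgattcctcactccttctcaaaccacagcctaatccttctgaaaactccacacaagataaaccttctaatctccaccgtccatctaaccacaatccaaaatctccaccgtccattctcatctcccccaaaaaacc
LHCB2.1: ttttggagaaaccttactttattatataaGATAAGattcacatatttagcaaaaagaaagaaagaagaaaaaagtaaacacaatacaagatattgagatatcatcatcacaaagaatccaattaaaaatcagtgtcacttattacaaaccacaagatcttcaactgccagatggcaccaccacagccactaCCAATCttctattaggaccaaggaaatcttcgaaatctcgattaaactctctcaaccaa
PSAO: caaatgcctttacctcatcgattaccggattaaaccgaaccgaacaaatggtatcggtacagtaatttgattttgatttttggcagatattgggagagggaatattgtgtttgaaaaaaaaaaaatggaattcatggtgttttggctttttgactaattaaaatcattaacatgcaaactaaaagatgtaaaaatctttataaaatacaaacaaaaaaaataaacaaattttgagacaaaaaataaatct
RBCS1A: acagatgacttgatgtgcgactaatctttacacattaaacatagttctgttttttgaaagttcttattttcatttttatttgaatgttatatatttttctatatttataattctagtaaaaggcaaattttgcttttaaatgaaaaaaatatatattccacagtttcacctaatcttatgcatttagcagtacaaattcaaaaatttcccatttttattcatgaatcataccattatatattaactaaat
PSAD-2: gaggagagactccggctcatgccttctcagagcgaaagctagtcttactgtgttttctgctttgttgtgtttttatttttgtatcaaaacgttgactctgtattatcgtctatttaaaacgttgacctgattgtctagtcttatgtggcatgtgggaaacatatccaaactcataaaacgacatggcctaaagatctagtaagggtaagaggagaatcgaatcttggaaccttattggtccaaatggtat
ATPD held a GLK site 157 bases and a G-box 142 bases before its start, and LHCB2.1 an I-box at 221 and a GLK site at 59. The other 3 promoters held none of the 4 motifs in this window, which says nothing of the factors that bind there. Over the 41 promoters, 8 held a G-box (19.5%, against 6.49% of 27443 promoters of the same length). The I-box was in 11 (26.8% against 12.3%), the GLK site in 11 (26.8% against 10.2%) and the evening element in 1 (2.44% against 2.36%). The letters of no motif are contained in those of another.

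In mutant meiocytes the photosynthesis genes tended to read higher than in WT, but few single genes passed the test. The log2 fold change over WT was above 0 for 41 of the 41 genes in pol2a-1suvh2suvh9 (median 1.19), for 38 in suvh2suvh9 (median 0.44), for 36 in pol2a-1 (median 0.46) and for 40 in pol2a-2 (median 0.64). Over all 21214 features tested, 51.1% were above 0 in pol2a-1suvh2suvh9, 50.8% in suvh2suvh9, 50.2% in pol2a-1 and 53.5% in pol2a-2. The 4 comparisons share the same 2 WT libraries. Called higher were PSAO in pol2a-1suvh2suvh9 and in pol2a-1, and no gene in suvh2suvh9 or pol2a-2. Of all features, 0.0424% were called higher and 0.0189% lower in pol2a-1suvh2suvh9, 0.0% higher and 0.00471% lower in suvh2suvh9, 0.434% higher and 0.212% lower in pol2a-1 and 0.556% higher and 0.0896% lower in pol2a-2. At an unadjusted p under 0.05, 34 of the 41 genes were higher in pol2a-1suvh2suvh9 (9.15% of all features), 7 in suvh2suvh9 (3.0%), 9 in pol2a-1 (6.02%) and 14 in pol2a-2 (6.46%). DESeq2 called 22 of the 41 genes higher in pol2a-1suvh2suvh9 (2.09% of all features), 1 in suvh2suvh9 (0.344%), 1 in pol2a-1 (1.09%) and 1 in pol2a-2 (1.32%). Without a filter on low counts edgeR called 31 of the 41 higher in pol2a-1suvh2suvh9, with 590 of 29705 features, and with all 20 libraries in 1 fit 27 of the 41. The share of all features called in that last fit is not given here, so the 27 cannot be set against it.

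PSAO (AT1G08380), a small subunit of photosystem I that lies where the mobile antenna docks, had 54.2 and 42.2 CPM in pol2a-1suvh2suvh9, 23.4 and 24.3 CPM in suvh2suvh9, 25.9 and 26.9 CPM in pol2a-1 and 20.4 and 23.05 CPM in pol2a-2 meiocytes, against 10.4 and 10.5 CPM in WT meiocytes. No mutant library overlapped WT. The locus number of PSAO lies near that of POL2A (AT1G08260) on chromosome 1. The part of this position in the PSAO values was not tested. The log2 fold change was 2.08 ± 0.24 in pol2a-1suvh2suvh9 (SE; edgeR adjusted p = 0.00639) and 1.35 in pol2a-1 (adjusted p = 0.0197). The call in pol2a-1 was lost without either pol2a-1 library (adjusted p 0.212 without replicate 1, 0.185 without replicate 2) or either WT library (0.119 and 0.0573). The call in pol2a-1suvh2suvh9 was lost without WT replicate 1 (0.0543), where RBCS1A was called in its place. In pol2a-2, 3 of the 41 genes were called higher without WT replicate 1. The share of all features called in that fit is not given here, so this count cannot be set against it. With the offset for gene length neither PSAO call passed (0.0532 in pol2a-1suvh2suvh9 and 0.105 in pol2a-1), and with only the groups compared in the fit neither did (0.103 in pol2a-1suvh2suvh9 and 0.0546 in pol2a-1). PSAO also had the lowest p of the 41 genes in suvh2suvh9 (log2 fold change 1.18, adjusted p = 0.132) and pol2a-2 (0.98, adjusted p = 0.138) without being called. Next came PSAD-1 (0.86, adjusted p = 0.477) and PSAF (AT1G31330; 0.69, adjusted p = 0.711) in suvh2suvh9. In pol2a-2 they were the plastocyanin gene PETE2 (1.11, adjusted p = 0.281) and PSAF (0.83, adjusted p = 0.297).

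The WT meiocyte libraries differed between themselves over most of the 41 genes. WT replicate 1 was above WT replicate 2 for 38 of 41, with a median ratio of 1.91. Without WT replicate 1 the median log2 fold change of pol2a-1suvh2suvh9 was 1.80, and without WT replicate 2 it was 0.82. The corresponding medians were 1.01 and 0.07 in suvh2suvh9, 1.08 and 0.09 in pol2a-1 and 1.17 and 0.27 in pol2a-2. Each median stayed above 0 without either WT library, and its size differed by which of them was left out. With the offset for gene length the median of pol2a-1suvh2suvh9 was 0.72.

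**Figure D3:**
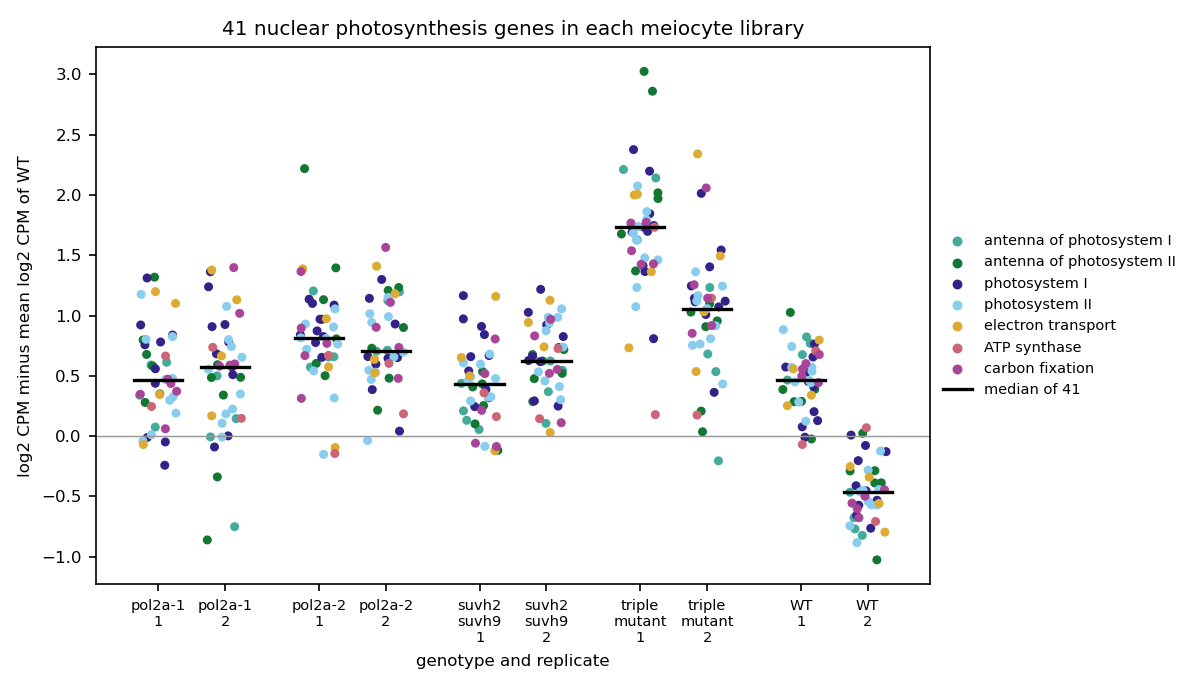
Difference in log2 CPM from the mean log2 CPM of the 2 WT meiocyte libraries, a point per gene and a line at the median, for each of the 10 meiocyte libraries. The medians are 1.73 and 1.06 in the pol2a-1suvh2suvh9 (triple mutant) libraries, and the 2 WT libraries lie at 0.47 and -0.47.

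The 2 triple mutant libraries also differed, with replicate 1 above replicate 2 for 39 of the 41 genes and a median ratio of 1.47. The largest ratios between them were those of the antenna genes LHCB1.5, LHCA1, LHCB2.1, LHCB3, LHCA4 and LHCA3. LHCB1.5, a gene of the major antenna complex, had 383 and 54.0 CPM in pol2a-1suvh2suvh9 meiocytes, against 69.0 and 40.3 CPM in WT meiocytes, and its exons lie wholly across a gene on the opposite strand. LHCA1 had 213 and 39.9 CPM in pol2a-1suvh2suvh9 and 73.4 and 28.7 CPM in WT. In both genes replicate 2 of the triple mutant lay within the WT range. Without triple mutant replicate 1 the median over the 41 genes was 0.85, and without replicate 2 it was 1.47.

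Counted by libraries that did not overlap, both pol2a-1suvh2suvh9 libraries were above both WT libraries for 34 of the 41 genes, as were both libraries of suvh2suvh9 for 19, of pol2a-1 for 18 and of pol2a-2 for 26. No gene had both mutant libraries below both WT libraries in any of the 4. Over all features 35.0% were above and 14.5% below in pol2a-1suvh2suvh9, 14.2% and 11.3% in suvh2suvh9, 23.9% and 20.7% in pol2a-1 and 21.1% and 11.8% in pol2a-2. PSAD-2, which docks ferredoxin, had 21.3 and 18.0 CPM in pol2a-1suvh2suvh9 and 8.72 and 7.83 CPM in WT meiocytes (log2 fold change 1.12, adjusted p = 0.163). PETE1 had 11.7 and 14.7 CPM in pol2a-1suvh2suvh9, against 5.04 and 1.67 CPM in WT meiocytes (1.86, adjusted p = 0.155). PSAG (AT1G55670), a photosystem I subunit that binds the antenna, had 52.1 and 33.1 CPM in pol2a-1suvh2suvh9 and 17.9 and 7.21 CPM in WT meiocytes (1.65, adjusted p = 0.14). All of these lay above WT in both libraries without passing the test. ATPD did not follow, with 48.3 and 48.2 CPM in pol2a-1suvh2suvh9 and 40.7 and 44.8 CPM in WT, a log2 fold change of 0.04 ± 0.21.

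By role, the medians in pol2a-1suvh2suvh9 meiocytes over WT lay close together: 1.33 for the photosystem II antenna, 1.31 for electron transport, 1.24 for photosystem I, 1.15 for the photosystem I antenna, 1.12 for carbon fixation and 1.098 for photosystem II, with 0.62 for the 2 ATP synthase genes. The 32 other photosynthesis genes had a median of 0.94, with 31 of 32 above 0 and none called. In pol2a-2 meiocytes 1 of them was called, the Rubisco small subunit gene RBCS1B (3.55, adjusted p = 0.00955), which holds sequence shared with its neighbouring copies and is uncertain. Set against pol2a-1 or against suvh2suvh9, the triple mutant meiocytes had no called gene among the 41, with medians of 0.73 against pol2a-1 and 0.79 against suvh2suvh9. Of all features 0.259% were called higher and 0.453% lower against pol2a-1, and 0.0283% higher and 0.00943% lower against suvh2suvh9. At an unadjusted p under 0.05, 18 of the 41 genes were higher against pol2a-1 (8.22% of all features) and 19 against suvh2suvh9 (6.07%). DESeq2 called 2 higher against pol2a-1 (1.85%) and 1 against suvh2suvh9 (0.698%), and without triple mutant replicate 2 edgeR called 2 higher against pol2a-1. The share of all features called without that library is not given here. The count against pol2a-1 depended on the fit: with only the groups compared 24 of the 41 genes were called higher, with 2191 of 20048 features. Without a filter on low counts 7 were called higher against pol2a-1, with 825 of 29705 features, and 8 against suvh2suvh9, with 367. Between pol2a-2 and pol2a-1 meiocytes no gene was called either (median 0.16, with 29 of 41 above 0), where 0.358% of all features were called higher and 0.156% lower and 52.4% were above 0. There 1 gene was higher at an unadjusted p under 0.05 (8.18% of all features), and DESeq2 called none of the 41 (1.91% of all features higher and 0.735% lower).

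Markers of other cell types were compared in the same libraries. The 16 tapetum markers, genes of the nurse layer of the anther, summed to 575 to 681 CPM in pol2a-1suvh2suvh9, 432 to 742 in suvh2suvh9, 327 to 438 in pol2a-1 and 338 to 646 in pol2a-2 meiocytes, against 312 to 320 CPM in WT meiocytes. Of the 16, 15 were above 0 in pol2a-1suvh2suvh9 (median 1.08), 11 were higher at an unadjusted p under 0.05 and none was called. The 6 epidermis markers summed to 119 to 136 CPM in pol2a-1suvh2suvh9 and 88.3 to 121 CPM in suvh2suvh9 meiocytes. Their sums were 76.8 to 99.4 CPM in pol2a-1 and 91.8 to 96.5 CPM in pol2a-2 meiocytes, against 43.5 to 96.4 CPM in WT meiocytes. Of the leaf markers, CA1 had 28 and 15 counts in pol2a-1suvh2suvh9, 3 and 4 in suvh2suvh9, 25 and 39 in pol2a-1 and 7 and 20 in pol2a-2 meiocytes, against 0 and 2 in WT meiocytes, and in pol2a-1suvh2suvh9 CA2 had 0 and 5 counts, against 0 in both WT meiocyte libraries. PPCK1, the third leaf marker, had 84.7 and 84.3 CPM in pol2a-1suvh2suvh9, within the 94.8 and 76.1 CPM of WT meiocytes. The 3 leaf markers summed to 85.4 to 86.3 CPM in pol2a-1suvh2suvh9 and 76.2 to 94.8 CPM in WT meiocytes, nearly all of it PPCK1. The meiocyte markers summed to 3115 to 3239 CPM in pol2a-1suvh2suvh9 and 2951 to 3229 CPM in WT meiocytes. The part of these cells in the photosynthesis counts was not tested.

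In seedlings at most 3 of the 41 genes were called in any mutant against WT, and the side of WT on which most genes lay differed by mutant. The median log2 fold change over WT was 0.04 in pol2a-1suvh2suvh9, 0.05 in suvh2suvh9, 0.23 in pol2a-1 and -0.17 in pol2a-2 seedlings, with 22 genes above 0 in pol2a-1suvh2suvh9, 23 in suvh2suvh9, 34 in pol2a-1 and 12 in pol2a-2. Of all features 50.0% were above 0 in pol2a-1suvh2suvh9, 49.7% in suvh2suvh9, 51.8% in pol2a-1 and 47.9% in pol2a-2. The WT seedling libraries are shared by the 4 comparisons. Called in pol2a-1suvh2suvh9 were RBCS1A and GAPA1 (higher) and PSAD-2 (lower), and in suvh2suvh9 RBCS1A and PETE1 (higher) and PSAD-2 (lower). These are 2 of 41 higher and 1 of 41 lower in each, where 7.21% and 6.08% of all 22297 features were called higher and lower in pol2a-1suvh2suvh9 and 5.4% and 5.49% in suvh2suvh9. At an unadjusted p under 0.05, 5 genes were higher and 7 lower in pol2a-1suvh2suvh9 (14.9% and 13.5% of all features), and 4 higher and 5 lower in suvh2suvh9 (13.1% and 13.0%). Both pol2a-1suvh2suvh9 libraries were above both WT libraries for 19 genes (31.7% of all features) and below for 17 (34.2%). The counts were 19 above (31.0%) and 15 below (31.7%) in suvh2suvh9, 27 above (24.8%) and 4 below (27.5%) in pol2a-1, and 6 above (31.3%) and 12 below (18.7%) in pol2a-2 seedlings. No gene was called in pol2a-1 or pol2a-2 seedlings, where 0.0224% of features were called higher and 0.00448% lower in pol2a-1 and 1.69% higher and 0.937% lower in pol2a-2. At an unadjusted p under 0.05, 7 genes were higher in pol2a-1 (8.28% of all features) and 6 lower in pol2a-2 seedlings (10.2%). DESeq2 called none of the 41 in pol2a-1 (0.278% of all features higher, 0.35% lower) or pol2a-2 (2.83% higher, 2.06% lower).

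RBCS1A, which encodes a small subunit of Rubisco, the enzyme that fixes carbon dioxide, had 24732 and 21526 CPM in pol2a-1suvh2suvh9 and 20018 and 18036 CPM in suvh2suvh9 seedlings, against 11794 and 11392 CPM in WT seedlings. The mutant libraries were all above WT. Its log2 fold change was 1.02 ± 0.15 in pol2a-1suvh2suvh9 (adjusted p = 0.00286) and 0.72 in suvh2suvh9. GAPA1 had 3245 and 2973 CPM in pol2a-1suvh2suvh9 and 1777 and 1965 CPM in WT seedlings (0.75 ± 0.16, adjusted p = 0.0132). PRK, RCA and GAPB, the other carbon fixation genes, were above 0 as well, at 0.49, 0.38 and 0.33, and did not pass the test. The median of the 5 carbon fixation genes was 0.49 in pol2a-1suvh2suvh9 and 0.35 in suvh2suvh9 seedlings.

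PSAD-2 moved the other way. It had 609 and 696 CPM in pol2a-1suvh2suvh9 and 862 and 687 CPM in suvh2suvh9 seedlings, against 1292 and 1230 CPM in WT seedlings (log2 fold change -0.93 ± 0.14 in pol2a-1suvh2suvh9, adjusted p = 0.00333, and -0.70 in suvh2suvh9). Its paralog PSAD-1 had 1545 and 1795 CPM in pol2a-1suvh2suvh9 and 2329 and 2278 CPM in WT seedlings (-0.44, adjusted p = 0.0633). PSAD-1 held 68.1 and 68.5% of the pair's CPM per kb in pol2a-1suvh2suvh9 and 66.5 and 67.1% in suvh2suvh9 seedlings, and 60.3 to 62.4% in the other 6 seedling libraries. Other photosystem I subunits with a lower level were PSAN (-0.57, adjusted p = 0.0546) and PSAE-1 (-0.47, adjusted p = 0.105). The median of the 10 photosystem I subunits was -0.35 in pol2a-1suvh2suvh9 seedlings, that of the 10 photosystem II subunits 0.15.

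**Figure D4:**
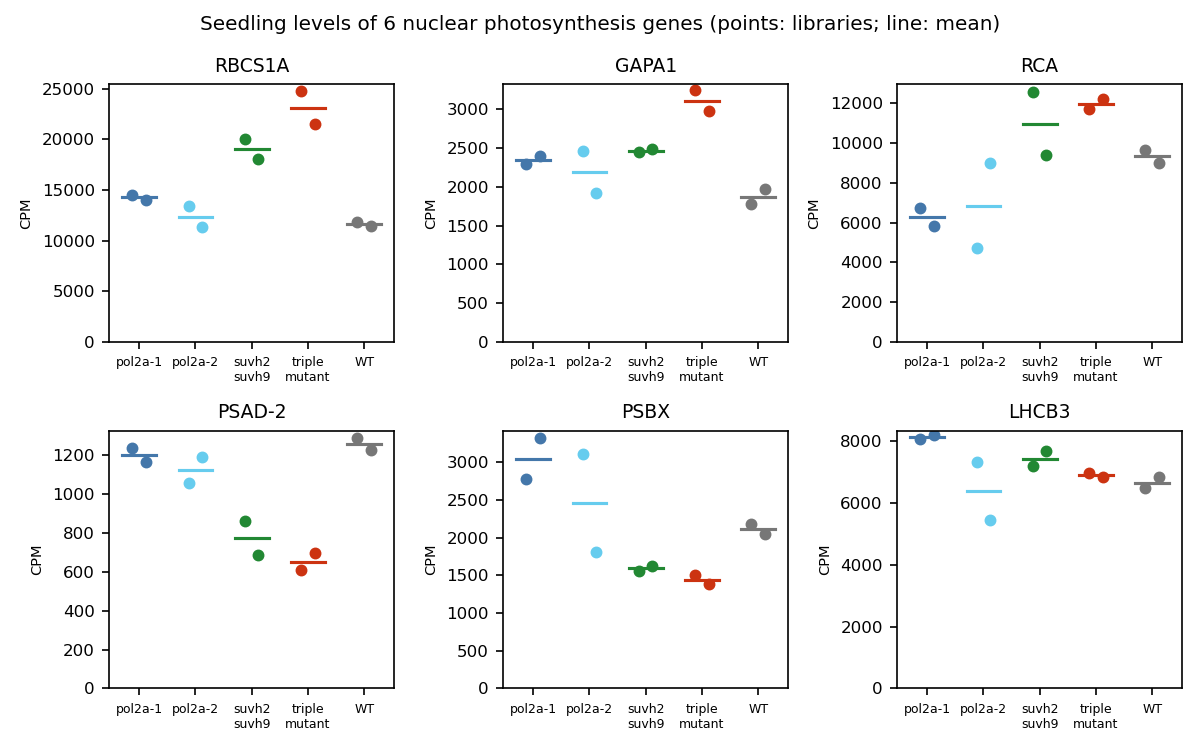
CPM in the 10 seedling libraries for RBCS1A, GAPA1, RCA, PSAD-2, PSBX and LHCB3, a point per library, with mutants left of WT. RBCS1A stands at 21526 to 24732 CPM in pol2a-1suvh2suvh9 and PSAD-2 at 609 to 696 CPM, on opposite sides of WT, while LHCB3 overlaps WT.

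Single libraries decided several of these calls. GAPA1 was no longer called in pol2a-1suvh2suvh9 without its replicate 1 (adjusted p = 0.0889), WT replicate 1 (0.125) or WT replicate 2 (0.0587). In suvh2suvh9 the call of RBCS1A was lost without suvh2suvh9 replicate 1 (0.0746) or either WT library (0.104 in each case), that of PSAD-2 without suvh2suvh9 replicate 2 (0.11) or WT replicate 1 or 2 (0.0991 and 0.0685), and that of PETE1 (0.44) without either library of suvh2suvh9, pol2a-1suvh2suvh9, pol2a-1 or WT (0.0545 to 0.246). RBCS1A and PSAD-2 in pol2a-1suvh2suvh9 kept their calls whichever library was left out, although with all 20 libraries in 1 fit RBCS1A stood at 0.0524. With only the groups compared in the fit, 9 were called higher and 10 lower in pol2a-1suvh2suvh9, and 6 and 7 in suvh2suvh9. The pol2a-2 seedling libraries, which share the fit, differed from each other, with replicate 1 above replicate 2 for 33 of 41 genes. In pol2a-1suvh2suvh9 the 2 higher calls became 6 without pol2a-2 replicate 1 and 5 without the library labelled pol2a-2 replicate 2, and 1 without WT replicate 1, WT replicate 2 or pol2a-1suvh2suvh9 replicate 1. The 1 lower call became 8 without either pol2a-2 library and 2 without suvh2suvh9 replicate 2. In suvh2suvh9 the 2 higher and 1 lower calls became 6 and 6 without either pol2a-2 library. The higher calls there became 0 without WT replicate 1, WT replicate 2 or suvh2suvh9 replicate 1, and 1 without suvh2suvh9 replicate 2 or any library of pol2a-1 or pol2a-1suvh2suvh9. The lower call was lost without WT replicate 1, WT replicate 2 or suvh2suvh9 replicate 2. How many of all features were called in each of these other fits is not given here.

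In pol2a-1 and pol2a-2 seedlings the genes with the lowest p lay on opposite sides of WT. In pol2a-1 they were PSBS (AT1G44575), which triggers the release of excess light energy as heat, with 1842 and 1982 CPM in pol2a-1, against 1360 and 1415 CPM in WT seedlings (log2 fold change 0.49, adjusted p = 0.293), ATPD (0.44, adjusted p = 0.302) and PETC (0.36, adjusted p = 0.308). In pol2a-2 they were PSAF, a photosystem I subunit on the plastocyanin side, with 1877 and 2642 CPM in pol2a-2, against 3182 and 3107 CPM in WT seedlings (-0.56, adjusted p = 0.0946), LHCA1 (-0.45, adjusted p = 0.109) and PSAG (-0.30, adjusted p = 0.177). RCA had 6746 and 5844 CPM in pol2a-1 and 4697 and 9015 CPM in pol2a-2, against 9657 and 8996 CPM in WT seedlings. The RCA values of pol2a-1 lay below WT, and those of pol2a-2 overlapped WT. Without the library labelled pol2a-2 replicate 2, in which POL2A was above WT, the median of pol2a-2 over the 41 genes was 0.11, with 3 genes called higher and 3 lower, and without pol2a-2 replicate 1 it was -0.34. Against pol2a-1 seedlings, pol2a-2 had no gene called, with a median of -0.30, 2 of 41 genes above 0 (47.9% of all features) and 12 lower at an unadjusted p under 0.05 (6.07%). Without pol2a-2 replicate 1, 16 were called lower there, a count given without the share of all features in that fit. In pol2a-1 against WT seedlings, 3 were called higher without pol2a-2 replicate 1 and 2 without the library labelled pol2a-2 replicate 2. For none of these counts with a library left out is the share of all features given here, so they cannot be set against it. With all seedling libraries in the fit, 0.233% of all features were called higher and 0.152% lower in pol2a-2 against pol2a-1. DESeq2 called none of the 41 (0.713% of all features higher, 0.579% lower).

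Set against pol2a-1 seedlings, with which it shares the pol2a-1 allele, the triple mutant had 3 genes called higher and 5 lower, where 4.91% and 5.84% of all features were. RCA was higher, with 11693 and 12207 CPM in pol2a-1suvh2suvh9 and 6746 and 5844 CPM in pol2a-1 seedlings (log2 fold change 0.92, adjusted p = 0.0453), as were PRK (0.70) and RBCS1A (0.69). PSBX (AT2G06520), a small membrane subunit of photosystem II, was lower, with 1508 and 1382 CPM in pol2a-1suvh2suvh9 and 2775 and 3320 CPM in pol2a-1 (-1.08, adjusted p = 0.0212). PSAD-2 (-0.89), PSAN (-0.84), PSBQ2 (-0.71) and PSBQ1 (-0.70) were also lower, the last 2 being subunits of the oxygen-evolving complex. At an unadjusted p under 0.05, 6 genes were higher and 15 lower (13.9% and 14.6% of all features). No call among these 8 held with every library left out in turn. Without pol2a-1suvh2suvh9 replicate 1 no gene was called higher or lower, and without its replicate 2 there was 1 of each. There were 0 higher and 3 lower without pol2a-1 replicate 1, 0 higher and 1 lower without pol2a-1 replicate 2, and 1 higher and 3 lower without either WT library. Without pol2a-2 replicate 1 there were 6 higher and 15 lower, and without the library labelled pol2a-2 replicate 2 there were 5 higher and 15 lower. Shares of all features called with a library left out are not given here, so these counts cannot be set against them. Against suvh2suvh9 seedlings the triple mutant had no called gene among the 41, where 0.193% of features were called higher and 0.0538% lower. There 2 genes were higher at an unadjusted p under 0.05 (6.61% of all features), and DESeq2 called none of the 41 (1.05% of all features higher, 0.776% lower).

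The triple mutant's difference from WT was itself compared between tissues, as the effect in meiocytes minus the effect in seedlings in a fit of all 20 libraries. In seedlings this mutant and WT lie in different library sets by chloroplast share. The seedling part of each difference cannot be told apart from that library set. The median over the 41 genes was 1.19, above 0 for 40 (53.1% of all features), and 13 genes were called higher in meiocytes, where 2.72% of 24418 features were. They were 7 of the 10 photosystem I subunits, 3 of the 10 photosystem II subunits, 2 of the 6 photosystem II antenna genes and 1 of the 4 electron transport genes. PSAO had the largest difference (2.44 ± 0.30, adjusted p = 0.000217), with 54.2 and 42.2 CPM in pol2a-1suvh2suvh9 against 10.4 and 10.5 CPM in WT meiocytes, and 2304 and 2219 CPM in pol2a-1suvh2suvh9 against 3100 and 2893 CPM in WT seedlings. PSAD-2 followed (2.03 ± 0.26, adjusted p = 0.000277): it read higher than WT in meiocytes and was called lower in seedlings. None of the 5 carbon fixation genes was called, and RBCS1A differed by only 0.10 ± 0.39 between tissues (adjusted p = 0.996). The count of 13 moved to 3 without pol2a-1suvh2suvh9 meiocyte replicate 1, without either pol2a-1suvh2suvh9 seedling library or without WT seedling replicate 1, to 6 without WT seedling replicate 2, to 8 without WT meiocyte replicate 2 and to 26 without WT meiocyte replicate 1. PSAO and PSAD-2 kept their calls in each of these fits. With only the groups compared the count was 4, and without a filter on low counts 31. For these other fits the share of all features called is not given here.

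**Figure D5:**
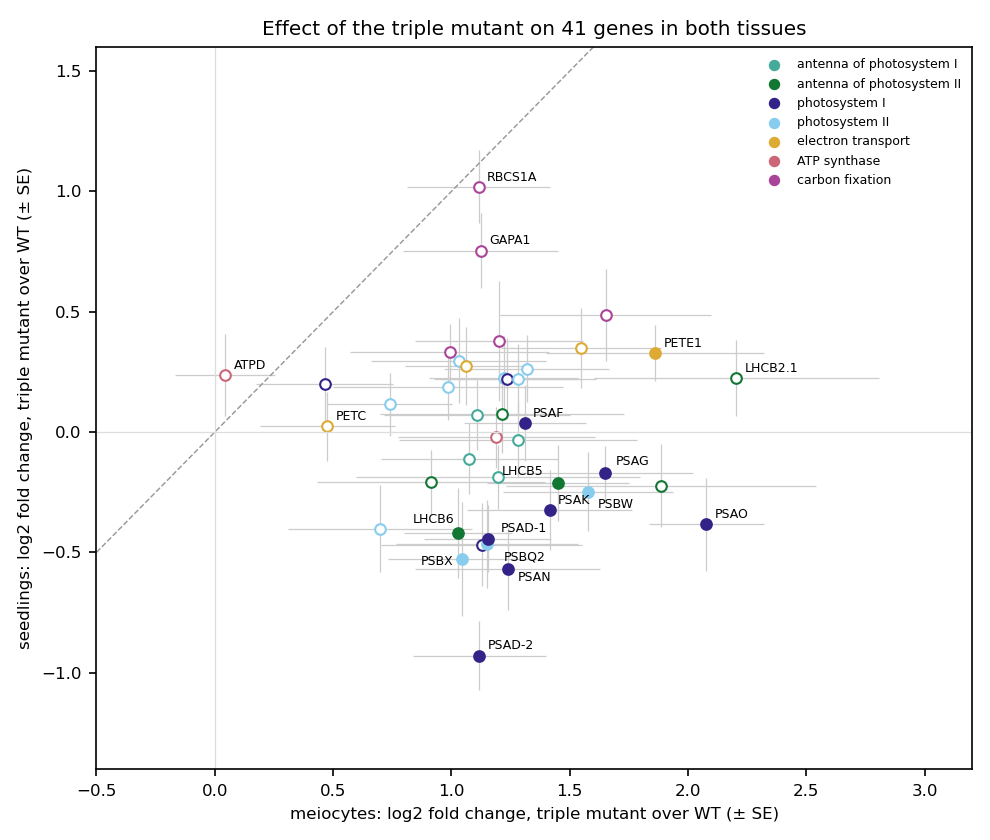
Log2 fold change of pol2a-1suvh2suvh9 over WT in meiocytes (x) and in seedlings (y), a point per gene with bars of ± SE, coloured by role and filled where the effect differed between tissues at adjusted p under 0.05, with a dashed line where both effects would be equal. PSAO lies at 2.08 and -0.38 and PSAD-2 at 1.12 and -0.93, far below the line, while RBCS1A at 1.11 and 1.02 lies next to it.

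For the single and double mutants the tissue difference was called for 2 genes in suvh2suvh9 (PSAO 1.45 and PSAD-2 1.16), none in pol2a-1 and 1 in pol2a-2 (PSAF 1.45). Of all features 0.606% were called higher in suvh2suvh9, 0.381% in pol2a-1 and 0.713% in pol2a-2. For suvh2suvh9 the seedling part cannot be told apart from the library set, as for the triple mutant. The median over the 41 genes was 0.41 in suvh2suvh9, 0.37 in pol2a-1 and 0.89 in pol2a-2. At an unadjusted p under 0.05, 8 genes were higher in suvh2suvh9 (6.62% of all features), 9 in pol2a-1 (9.41%) and 20 in pol2a-2 (9.71%). DESeq2 called 3 in suvh2suvh9 (1.97%), 2 in pol2a-1 (1.36%) and 6 in pol2a-2 (2.76%). Without WT meiocyte replicate 1 the counts were 4 in suvh2suvh9, 3 in pol2a-1 and 17 in pol2a-2. Counts with a library left out are given without the share of all features in the same fit. In suvh2suvh9 none was called without either WT seedling library, suvh2suvh9 meiocyte replicate 2 or either suvh2suvh9 seedling library, and 1 without pol2a-1 meiocyte replicate 2 or any seedling library of pol2a-1 or pol2a-1suvh2suvh9. In pol2a-1 the count was 2 without either pol2a-2 seedling library and 1 without WT meiocyte replicate 2 or any meiocyte library of pol2a-1suvh2suvh9 or pol2a-2. In pol2a-2 it was 2 without pol2a-2 meiocyte replicate 2 or the library labelled pol2a-2 seedling replicate 2, and 0 without WT meiocyte replicate 2, pol2a-2 meiocyte replicate 1, either pol2a-1 meiocyte library or any seedling library of WT, pol2a-1, suvh2suvh9 or pol2a-1suvh2suvh9.

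Other genes of the pathway in seedlings gave further calls. Of the 32 other photosynthesis genes, 10 were called higher and none lower in pol2a-1suvh2suvh9 seedlings, among them the Rubisco small subunit genes RBCS1B (1.99), RBCS2B (1.09) and RBCS3B (0.92) and the ferredoxin gene FD1 (0.82). RBCS1B and RBCS3B hold sequence shared between copies, and their values are uncertain. Among 14 regulators, HY5, which promotes greening in light, was lower in pol2a-1suvh2suvh9 (-1.24) and in pol2a-2 seedlings (-1.20), as were the sigma factor SIG5 (-0.88 and -0.82) and GNC (-0.87 and -0.59), while PIF1, which represses chlorophyll synthesis, was higher in pol2a-1suvh2suvh9 (0.79). Of 11 clock genes, LHY was higher (1.73) and PRR5 (-2.51), GI (-1.49) and PRR9 (-0.95) were lower in pol2a-1suvh2suvh9 seedlings. In suvh2suvh9 seedlings LHY (2.04) was also called higher and ELF4 (-4.03), GI (-1.45) and PRR9 (-1.31) lower. Epidermis markers summed to 1878 to 2103 CPM in pol2a-1suvh2suvh9 and 1992 to 2097 CPM in suvh2suvh9, against 1405 to 1430 CPM in WT seedlings. The marker CER1 went the other way, with 74.1 and 118 CPM in pol2a-1suvh2suvh9 and 119 and 57.4 CPM in suvh2suvh9. In WT seedlings CER1 had 135 and 132 CPM. Many photosynthesis genes cycle over the day, and the part of the clock or of the epidermis in the values of the 41 genes was not tested. No gene of the 14 for chlorophyll synthesis was called in pol2a-1suvh2suvh9 seedlings, while 1 was higher and 1 lower before adjustment at p under 0.05, and PORA was called lower in pol2a-2 seedlings (-2.55).

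Several of the 41 genes share reads with neighbours or copies. The library kit records no strand, and 12 of the 41 overlap a gene on the opposite strand, 6 of them over more than 10% of their exon bases: LHCB1.5 (100%), PSAG (61.4%), PSAE-1 (34.1%), PSAH2 (24.8%), LHCB6 (20.4%) and LHCB3 (15.0%). In WT meiocytes AT1G15810, across from LHCB6, had 2189 and 2546 counts, against 555 and 712 counts for LHCB6 itself, and AT2G34410 had 1378 and 1916 counts, against 1163 and 843 for LHCB1.5. AT2G08665 overlaps LHCB1.5 as well, and the part under AT2G34410 alone is not given here. AT1G55673, across from PSAG, had 302 and 141 counts, against 302 and 151 for PSAG. In WT meiocytes AT4G28755, across from PSAE-1, had 298 and 124 counts, against 325 and 140 for PSAE-1. In WT seedlings AT1G55673 had 69338 and 55252 counts, against 77237 and 60854 for PSAG. AT4G28755 had 62880 and 46144 there, against 79830 and 59745 for PSAE-1. AT1G15810 and AT2G34410 had far fewer counts there than LHCB6 and LHCB1.5. The levels of these genes are uncertain for that reason, in seedlings above all those of PSAG and PSAE-1. LHCB6 and PSAG are among the 13 above. Repeated sequence covered 10.7% of the exon windows of LHCB2.1 and 4.23% of those of LHCB1.5.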

How the data were processed

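RNA was measured in 20 libraries, 2 for each of 5 genotypes in each of 2 tissues, grouped by title. The files deposited by the authors hold raw read counts for genes and transposable elements. The submitters' processing notes name DESeq2 1.30.1, featureCounts 2.0.0, STAR 2.7.9a, cutadapt 3.4 and the build TAIR10. Per the labels' protocols, polyadenylated RNA entered a TruSeq RNA kit of version 2, which records no strand, and organellar transcripts are poorly sampled. The sources used here do not state how strand and reads with several hits were treated. That choice sets how overlapping or copied genes are counted.

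Each library held 58844 features, of which 27445 were nuclear genes. The median total, in units of 1e6 counts, was 17.1 in meiocytes and 25.2 in seedlings. CPM and CPM per kb of exon were computed from the deposited counts and lengths. Fits were run in R (4.3.3) by edgeR (4.0.16), with limma (3.58.1) loaded. They used filterByExpr with a minimum count of 10, TMM scaling and a two-sided quasi-likelihood F test. Adjustment was by Benjamini-Hochberg over all features tested, and a gene was called at adjusted p under 0.05. The 10 libraries of a tissue shared 1 fit (21214 features in meiocytes, 22297 in seedlings). All 20 libraries entered the fit for the tissue comparison and for the tissue difference of a mutant's effect (24418 features). SE is the log2 fold change divided by the root of F. The scripts were tested on simulated data, with known changes set in pol2a-1 against WT. A 2-fold change was called in 13% of the changed genes in meiocytes and 47% in seedlings. For a 4-fold change the shares were 65% and 96%. A gene not called, above all in meiocytes, is therefore not shown to be unchanged. No label says that the 2 libraries of a group came from separate growths, so p-values measure only the spread of these samples, which may be technical. Replicates differed by more than sampling noise in every group (chi-square per degree of freedom 8.78 to 49.6).

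The 41 genes and all lists were chosen with earlier results of these data known. Named genes were, per comparison with WT, up to 6 called each way or the 3 with the lowest p, for tissues the 4 largest and 4 smallest differences, the isoform pairs, and at most 4 called genes of each other list. PPCK1, GLK1 and GLK2 and some of the 41 beyond this rule were named after their values were seen. The alternatives were DESeq2 size factors, the DESeq2 1.42.0 Wald test, no filter, only the groups compared, all 20 libraries in 1 fit, nuclear genes only, an offset for gene length, pol2a-2 joined with pol2a-1, a replicate block, and each library left out. Promoters and gene names came from RefSeq on TAIR10.1.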

Additional observations from a re-analysis of the deposited data

Results flagged for a closer look

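For 16 combinations of gene and mutant, the effect of the mutant over WT differed between meiocytes and seedlings by the test of that difference itself (edgeR quasi-likelihood F test, Benjamini-Hochberg adjusted p under 0.05). Each value is the log2 fold change in meiocytes minus that in seedlings. In pol2a-1suvh2suvh9 the photosystem I genes were PSAO (2.44), PSAD-2 (2.03), PSAG (1.83), PSAN (1.80), PSAK (1.74), PSAD-1 (1.59) and PSAF (1.26). The photosystem II genes were PSBW (1.82), PSBQ2 (1.62) and PSBX (1.58), the antenna genes LHCB5 (1.65) and LHCB6 (1.43), and the plastocyanin gene PETE1 (1.55). In suvh2suvh9 the difference was called for PSAO (1.45) and PSAD-2 (1.16), and in pol2a-2 for PSAF (1.45). All 16 differences were positive, and the adjusted p of the 13 in pol2a-1suvh2suvh9 ran up to 0.0491. The 4 mutants share the WT libraries of both tissues, so their values are not independent of each other. Seedlings of pol2a-1suvh2suvh9 and suvh2suvh9 lie in another library set than WT seedlings by chloroplast share. The seedling part of their differences cannot be told apart from that set.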

How the results depend on the processing

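No named gene changed direction under the alternatives run. The median over the 41 genes changed sign in pol2a-1suvh2suvh9 seedlings (0.04 as reported, -0.02 with the offset for gene length) and in pol2a-2 seedlings (-0.17 as reported, 0.11 without pol2a-2 replicate 2). Of 298 counts of called genes under settings other than leaving out a library, 230 stayed within 1.5 times the count reported, and of 480 with a library left out, 389 did. For single genes named, 419 of 488 calls stayed on their side of the threshold, and 707 of 830 with a library left out. The 68 counts that moved follow by setting. Here they and the counts with a library left out are given without the share of all features called in the same fit. They therefore do not show by themselves that the 41 genes differ from other features. The cause of these moves was not tested.

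With the offset for gene length, called higher in meiocytes were 0 in pol2a-1suvh2suvh9 and 0 in pol2a-1; called lower in seedlings were 4 in pol2a-1suvh2suvh9 and 3 in suvh2suvh9; the tissue difference was called for 5 in pol2a-1suvh2suvh9, 1 in suvh2suvh9 and 0 in pol2a-2. Without a filter on low counts, higher in meiocytes were 31 in pol2a-1suvh2suvh9, 1 in suvh2suvh9, 3 in pol2a-1 and 4 in pol2a-2, with 7 in pol2a-1suvh2suvh9 against pol2a-1, 8 against suvh2suvh9 and 2 in pol2a-2 against pol2a-1. In seedlings it gave 4 higher and 9 lower in pol2a-1suvh2suvh9, 4 and 5 in suvh2suvh9, 2 and 1 in pol2a-1, 5 lower in pol2a-2, 5 and 12 in pol2a-1suvh2suvh9 against pol2a-1 and 3 lower in pol2a-2 against pol2a-1. Its tissue differences were 31 in pol2a-1suvh2suvh9, 5 in suvh2suvh9, 7 in pol2a-1 and 18 in pol2a-2.

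With only the groups compared in the fit, higher in meiocytes were 0 in pol2a-1suvh2suvh9, 0 in pol2a-1 and 24 in pol2a-1suvh2suvh9 against pol2a-1. In seedlings there were 9 higher and 10 lower in pol2a-1suvh2suvh9, 6 and 7 in suvh2suvh9, 3 and 1 in pol2a-1 and 11 lower in pol2a-1suvh2suvh9 against pol2a-1, and tissue differences were 4 in pol2a-1suvh2suvh9, 0 in suvh2suvh9 and 0 in pol2a-2. With all 20 libraries in 1 fit, higher in meiocytes were 27 in pol2a-1suvh2suvh9, 1 in suvh2suvh9, 2 in pol2a-2 and 2 in pol2a-1suvh2suvh9 against pol2a-1; in seedlings 0 were higher in pol2a-1suvh2suvh9, 0 higher and 0 lower in suvh2suvh9, and 0 higher and 1 lower in pol2a-1suvh2suvh9 against pol2a-1. By the DESeq2 Wald test, higher in meiocytes were 22 in pol2a-1suvh2suvh9, 1 in suvh2suvh9, 1 in pol2a-2, 2 in pol2a-1suvh2suvh9 against pol2a-1 and 1 against suvh2suvh9. Lower in seedlings were 3 in pol2a-1suvh2suvh9, 2 in suvh2suvh9 and 9 in pol2a-1suvh2suvh9 against pol2a-1, with tissue differences of 2 in pol2a-1 and 6 in pol2a-2. With pol2a-2 joined to pol2a-1, 0 were higher in meiocytes. With nuclear genes only, 1 was higher in pol2a-1suvh2suvh9 against pol2a-1 seedlings and 1 tissue difference was called in suvh2suvh9.

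Same-numbered libraries correlated in their deviations from the group means at -0.30 to 0.29 in meiocytes and -0.40 to 0.28 in seedlings, so the numbers gave no pairing. With a replicate block, seedlings had 1 gene higher in suvh2suvh9 and 1 higher and 3 lower in pol2a-1suvh2suvh9 against pol2a-1, the tissue difference was called for 1 in suvh2suvh9 and 0 in pol2a-2, and no other count moved.

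Leaving out each library in turn, the higher calls in meiocytes ran 0 to 1 in pol2a-1, 0 to 3 in pol2a-2 and 0 to 2 in pol2a-1suvh2suvh9 against pol2a-1. In seedlings the higher calls ran 1 to 6 and the lower 1 to 8 in pol2a-1suvh2suvh9, 0 to 6 and 0 to 6 in suvh2suvh9, 0 to 3 higher in pol2a-1, 0 to 3 and 0 to 3 in pol2a-2, 0 to 6 and 0 to 15 in pol2a-1suvh2suvh9 against pol2a-1 and 0 to 16 lower in pol2a-2 against pol2a-1. Tissue differences ran 3 to 26 in pol2a-1suvh2suvh9, 0 to 4 in suvh2suvh9, 0 to 3 in pol2a-1 and 0 to 17 in pol2a-2. Precision was limited by 2 libraries a group and, in meiocytes, by counts as low as 35 for 1 of the 41 genes.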
